A study of Homo sapiens with 2 samples.

Results

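TCF7, LEF1, BCL11B, IKZF1, ETS1, RUNX3, RUNX2, SATB1, TOX and ERG encode transcription factors grouped here as T-lineage identity genes. The name fits them unequally, as ERG is shut off in normal T-cell development and RUNX2 is best known for bone formation. These 10 genes were taken by name from the 20033 protein-coding genes that GENCODE 44 places on chromosomes 1 to 22, X and Y, and all 10 names were found. NUDT21, a subunit of the cleavage factor that chooses polyadenylation sites in pre-mRNA, was mapped on chromatin by CUT&Tag, which sequences DNA that a transposase, tethered by an antibody, cuts beside the antibody's target. Both samples were biological replicates of J.gamma1 cells profiled with the same NUDT21 antibody, with no treatment named in the labels, and they formed 1 group. J.gamma1 is a human line of T-ALL (T-cell acute lymphoblastic leukemia), descended from Jurkat, that lacks the phospholipase PLCG1, so all values come from 1 leukemic clone. No control sample was analysed here and no conditions could be compared, so counts and ranks are given as a description, with no test.

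TCF7 and LEF1 are HMG-box factors that act downstream of WNT and NOTCH signals in the thymus. BCL11B and IKZF1 are zinc finger proteins, of which the former closes off other fates at T-lineage commitment and the latter is a lymphoid regulator and a tumour suppressor in acute lymphoblastic leukemia. RUNX3 and RUNX2 share the Runt DNA-binding domain, ETS1 and ERG share the ETS domain, SATB1 organises chromatin loops in thymocytes, and TOX is needed for CD4 T-cell development. Many of these genes have alternative promoters, so every annotated transcript start was considered. Starts of a gene lying no more than 500 bp from their neighbours were joined into a start group, and the 10 genes had 55 start groups, numbered from the 5′ end of each gene.

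To examine which of these genes carry NUDT21 at a promoter, peaks whose edge lay within 3000 bp of any transcript start were counted in each replicate. TCF7, LEF1, BCL11B, IKZF1, ETS1, RUNX3 and SATB1 had such a peak in both replicates, TOX in replicate 1 only, ERG in replicate 2 only, and RUNX2 in neither. This was 7 of 10 genes, against 57% of all protein-coding genes. By replicate it was 8 of 10 against 69.8% in replicate 1 and 8 of 10 against 57.9% in replicate 2. With 10 genes, these shares lay near the background and say nothing particular about the list.

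Which start carried the peak differed between the genes. At the start of the canonical transcript, 5 of 10 genes had a peak in both replicates (TCF7, LEF1, BCL11B, RUNX3 and SATB1), against 52.3% of protein-coding genes. With the summit, the highest point of the peak, within 500 bp of that start, 4 of 10 genes remained (TCF7, LEF1, BCL11B and RUNX3), against 32.6%. Over all start groups, 23 of 55 had a peak within 3000 bp in both replicates, against 41.3% of the 69537 start groups of protein-coding genes. With summits within 500 bp, 10 of 55 did, against 15.9%.

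Sequences upstream of 6 start groups are shown to set promoters of TCF7, BCL11B and ETS1 that held summits of both replicates beside promoters of RUNX2 and ERG that had no peak. Each is the 300 bases before the most 5′ start of its group in the hg38 reference, written 5′ to 3′ on the strand of the gene, with CG dinucleotides in capitals. The TCF7 window (group 1, chr5:134114381-134114680, plus strand) and the BCL11B window (group 1, chr14:99272198-99272497, minus strand) held the summits of both replicates.
TCF7 group 1: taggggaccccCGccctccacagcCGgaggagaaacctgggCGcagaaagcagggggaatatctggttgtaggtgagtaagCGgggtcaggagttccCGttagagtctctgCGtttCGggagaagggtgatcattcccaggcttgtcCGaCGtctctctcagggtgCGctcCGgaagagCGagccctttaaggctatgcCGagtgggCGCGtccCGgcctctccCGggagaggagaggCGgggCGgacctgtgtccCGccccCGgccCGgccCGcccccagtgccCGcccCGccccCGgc
BCL11B group 1: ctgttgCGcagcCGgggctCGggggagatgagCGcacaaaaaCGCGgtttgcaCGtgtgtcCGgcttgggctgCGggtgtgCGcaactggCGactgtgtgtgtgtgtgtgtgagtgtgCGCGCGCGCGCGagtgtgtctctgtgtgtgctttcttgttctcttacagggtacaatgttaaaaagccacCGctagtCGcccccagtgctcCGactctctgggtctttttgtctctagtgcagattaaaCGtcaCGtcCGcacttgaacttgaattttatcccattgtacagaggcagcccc
In the TCF7 window the summits fell on bases 33 and 16, and the window held 26 CG dinucleotides at a GC content of 68.3%. In the BCL11B window they fell on bases 102 and 100, inside a run of repeated TG that lies ahead of a run of CG dinucleotides. That window held 23 CG dinucleotides at a GC content of 56.3% in all. The next window belongs to the internal group 2 of ETS1, which held the summits of both replicates (chr11:128522311-128522610, minus strand).
ETS1 group 2: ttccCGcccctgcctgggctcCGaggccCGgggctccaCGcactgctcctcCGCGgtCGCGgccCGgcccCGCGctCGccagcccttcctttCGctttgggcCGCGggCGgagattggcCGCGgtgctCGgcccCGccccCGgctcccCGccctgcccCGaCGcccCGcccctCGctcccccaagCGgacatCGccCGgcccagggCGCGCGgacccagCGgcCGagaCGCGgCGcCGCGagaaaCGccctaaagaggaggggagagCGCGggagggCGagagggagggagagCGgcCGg
The ETS1 group 2 window held 45 CG dinucleotides at 79.3% GC, with the summits on bases 46 and 45, and it overlapped the microRNA gene MIR6090. The last windows come from promoters without a peak in either replicate, the distal and proximal promoters of RUNX2 (group 1, chr6:45327857-45328156, and group 3, chr6:45421736-45422035, both plus strand) and an upstream promoter of ERG (group 2, chr21:38660668-38660967, minus strand).
RUNX2 group 1: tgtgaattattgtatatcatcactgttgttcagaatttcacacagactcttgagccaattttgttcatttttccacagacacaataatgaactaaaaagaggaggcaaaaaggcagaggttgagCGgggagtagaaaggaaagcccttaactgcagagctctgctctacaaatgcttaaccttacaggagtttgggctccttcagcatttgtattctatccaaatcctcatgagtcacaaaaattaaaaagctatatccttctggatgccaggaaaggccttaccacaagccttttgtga
RUNX2 group 3: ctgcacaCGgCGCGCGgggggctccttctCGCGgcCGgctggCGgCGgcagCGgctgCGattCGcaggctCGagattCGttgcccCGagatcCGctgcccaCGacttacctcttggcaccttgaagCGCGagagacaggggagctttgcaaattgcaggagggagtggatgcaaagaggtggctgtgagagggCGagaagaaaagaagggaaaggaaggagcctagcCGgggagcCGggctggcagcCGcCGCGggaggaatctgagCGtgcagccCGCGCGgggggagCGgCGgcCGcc
ERG group 2: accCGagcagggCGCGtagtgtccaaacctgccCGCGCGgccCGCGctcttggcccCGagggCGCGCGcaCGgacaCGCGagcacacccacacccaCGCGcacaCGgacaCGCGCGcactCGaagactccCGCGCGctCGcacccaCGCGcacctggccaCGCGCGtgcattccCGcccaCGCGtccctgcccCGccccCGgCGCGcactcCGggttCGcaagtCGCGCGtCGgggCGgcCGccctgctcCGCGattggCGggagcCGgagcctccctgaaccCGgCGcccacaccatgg
RUNX2 group 1 held 1 CG dinucleotide at 40% GC, whereas RUNX2 group 3 held 32 at 68.3% and ERG group 2 held 52 at 76.7%. The latter pair thus reached or passed the TCF7 window in CG dinucleotides and had no peak.

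Enrichment is given as the fold at the summit over the control level, as the authors' peak caller wrote it, and as its percentile, the share of the peaks of the same list with a lower fold. The lists held 97162 peaks in replicate 1 and 68532 in replicate 2, with median folds of 3.95 and 4.23 on the main chromosomes. The median summit there rested on 30 fragments in replicate 1 and 20 in replicate 2, over median control levels of 6 and 3.90. Replicate 1 thus had more fragments and a higher control level at its summits, and folds of the lists are not on 1 scale. For the 8 genes with a promoter peak in each replicate, the strongest promoter peak had a median percentile of 76.4 in replicate 1 and 50.6 in replicate 2. All protein-coding genes with a promoter peak had medians of 82.2 and 77.9.

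**Figure D1:**
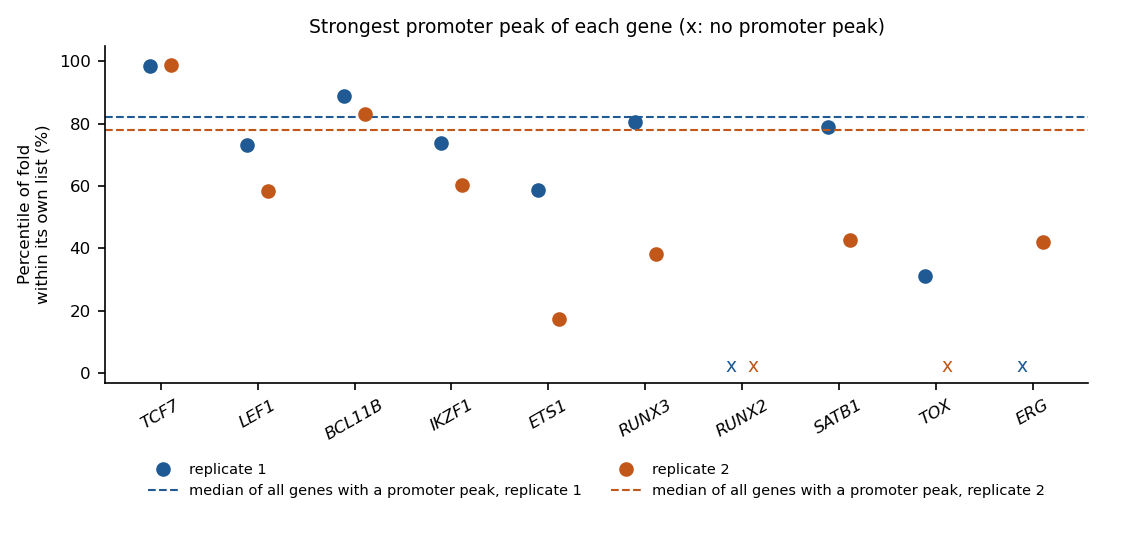
Percentile of the fold of the strongest promoter peak of each gene within its own list (vertical axis, percent), for replicate 1 (blue) and replicate 2 (orange), with a cross where no promoter peak was called. Dashed lines are the medians of all protein-coding genes with a promoter peak (82.2 and 77.9), and TCF7 and BCL11B are the only genes of the 10 above the line in both replicates.

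TCF7 (ENSG00000081059.20, chr5:134114681-134151865, plus strand) had the highest promoter enrichment of the 10 genes in both replicates. The peak at its 5′ end had a fold of 11.5 in replicate 1 and 10.7 in replicate 2, higher than 98.4% and 98.7% of the peaks of each list. The summit had 103 fragments against a control level of 7.31 in replicate 1, and 58 against 4.51 in replicate 2. Both summits lay upstream of the most 5′ start, at 268 and 285 bp, and were 17 bp apart. Of the 10 genes, TCF7 alone kept a promoter peak in both replicates when each list was limited to its 10000 peaks of highest −log10 p, 1 of 10 against 24.3% of all protein-coding genes.

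All 7 start groups of TCF7 lay within 3000 bp of a peak in both replicates, but 6 of them did so through wide peaks inside the gene. Replicate 1 had peaks of 8196 bp and 10521 bp there, wider than 99.3% and 99.6% of its list. In replicate 2 the same stretches held peaks of 6711 bp and 6037 bp, wider than 99.3% and 99.1%, together with peaks of 1331 bp and 3959 bp. The coding start group 2, 8937 bp into the gene, lay 933 and 987 bp from the nearest summits. The coding start groups 6 and 7, 27504 and 28111 bp into the gene, lay inside the widest peak of replicate 1 and inside the 6037 bp peak of replicate 2, with no summit within 500 bp. Of the internal groups, only the noncoding group 5 had a summit within 500 bp in both replicates. These summits lay 437 and 383 bp upstream of it, at folds of 5.47 and 5.70, and belonged to the peaks of 10521 and 6037 bp. Peaks of this width do not by themselves single out an internal start.

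LEF1 (ENSG00000138795.10, chr4:108047545-108168956, minus strand), the paralogue of TCF7, had peak summits at 2 start groups in both replicates. At the canonical group 1 the folds were 4.53 and 3.96 (percentiles 64.4 and 41.0), with summits 61 and 35 bp upstream of the start. At group 3, 2159 bp into the gene, the folds were 4.97 and 4.50 (percentiles 73.2 and 58.4), with summits 72 and 67 bp upstream. The summits of the replicates were 26 bp apart at group 1 and 5 bp apart at group 3, so both starts carried a peak of their own. LEF1-AS1, a noncoding gene on the other strand, also has starts within 3000 bp of these peaks, which thus belong to both genes by distance.

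The other start groups of LEF1 are noncoding apart from group 2. A peak 87546 bp into the gene had its summit at the same base in both replicates, with folds of 4.78 and 4.21, and lay 2003 bp from the noncoding group 5. Groups 7 and 8 had no peak, and group 9 had a peak in replicate 1 only (fold 4.61).

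BCL11B (ENSG00000127152.18, chr14:99169287-99272197, minus strand) came after TCF7 in both replicates. Its strongest promoter peak had a fold of 6.46 in replicate 1 and 5.86 in replicate 2, higher than 88.7% and 83.1% of each list. The summits lay 199 and 201 bp upstream of the canonical start, where 48 fragments stood against a control level of 6 in replicate 1 and 26 against 3.61 in replicate 2. A further upstream peak with its summit 1065 bp before the start was called in both replicates at folds of 3.69 and 4.03, with summits 1 bp apart. Start group 2, 673 bp into the gene, had a summit within 500 bp in replicate 1 only (fold 5.40).

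IKZF1 (ENSG00000185811.21, chr7:50304068-50405101, plus strand) passed the promoter count through an internal noncoding start. At the canonical group 1, which holds 11 coding transcripts, replicate 1 had 3 peaks and the strongest had a fold of 5.02 (percentile 73.9) on 33 fragments over 5.26. Replicate 2 had none there. The coding group 2, 4612 bp into the gene, also had a peak in replicate 1 only (fold 3.90). In replicate 2 the promoter peaks of IKZF1 reached folds of 3.88 and 4.61. Their summits lay 3372 and 1906 bp upstream of group 3, a single noncoding start 14338 bp into the gene. The peak at 10967 bp, with summits 1 bp apart, was the only promoter peak of IKZF1 found in both replicates (folds 3.08 and 3.88). With promoters within 1000 bp, or with starts of protein-coding transcripts only, IKZF1 was no longer counted.

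RUNX3 (ENSG00000020633.19, chr1:24899511-24965121, minus strand) had peaks at all 3 of its start groups in both replicates. The distal group 1 had folds of 5.31 and 3.48 (percentiles 78.1 and 25.3), and the proximal group 2, which holds the canonical start, had folds of 3.23 and 2.99 (percentiles 26.2 and 10.7). At the noncoding group 3, 36323 bp into the gene, the folds were 5.47 and 3.58 (percentiles 80.5 and 28.1). By summits within 500 bp, the distal promoter thus had a higher fold than the proximal promoter in each list, and group 3 had the highest of the 3. The group 3 peak also lay within 3000 bp of the proximal start. By that distance the proximal group led the distal group in replicate 1 (5.47 against 5.31). In replicate 2 the distal group led (3.87 against 3.58), through a peak with its summit 2300 bp into the gene. RUNX3-AS1 also has a start within 3000 bp of that peak. All promoter peaks of RUNX3 in replicate 2 had a −log10 q under 5, and RUNX3 was lost from the count when that was asked for.

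RUNX2 (ENSG00000124813.23, chr6:45328157-45664349, plus strand), a factor known for bone formation that is also active in early thymocytes, had no peak within 3000 bp of any of its 3 start groups. The only peak in its body lay 49606 bp from the 5′ end in replicate 1 (fold 5.15, percentile 75.9) and 49928 bp in replicate 2 (fold 2.50, percentile 1.73). These summits were 170 and 132 bp from a start of SUPT3H, which is transcribed from within the RUNX2 locus, so by the nearest start the peak belongs to SUPT3H. The distal and the proximal promoter of RUNX2, which share their layout with those of RUNX3, had no peak in either list.

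ETS1 (ENSG00000134954.14, chr11:128458761-128587558, minus strand) carried its peak at an internal promoter. The distal group 1, which holds the canonical start, had no peak. At group 2, 65248 bp downstream, where 4 coding transcripts begin, the folds were 4.30 and 3.23 (percentiles 58.7 and 17.5) on 69 fragments over 14 and 31 fragments over 8.91. The summits of both replicates were 1 bp apart, 255 and 256 bp upstream of the start, as marked by base in the window above. The control levels there were more than the median of each list, and MIR6090 shares the position. Group 3 had a peak in replicate 1 only (fold 4.09, percentile 53.0), as did the noncoding group 4 (fold 3.5).

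ERG (ENSG00000157554.20, chr21:38380027-38661780, minus strand), an ETS factor of blood stem cells that is shut off in normal T-cell development and can act as an oncogene in T-ALL, had no peak at groups 1 to 5, which include all its coding starts. Its only promoter peak was called in replicate 2, at a fold of 3.98 on 10 fragments over a control level of 1.77. The summit lay 3142 bp from the noncoding group 6, so only the edge of the peak was within the limit. Body peaks of ERG were 3 in each replicate, and no peak of 1 replicate touched a peak of the other.

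SATB1 (ENSG00000182568.18, chr3:18345377-18445621, minus strand) had 14 start groups, of which 3 carried a peak in both replicates. Groups 5, 6 and 7, from 19547 to 20881 bp into the gene and including the canonical start, lay within 3000 bp of a peak with folds of 3.76 and 4.0 (percentiles 43.5 and 42.8). Its summits lay 269 and 32 bp from group 5, on 52 fragments over 12 and 32 fragments over 7.24. The most 5′ groups 1 and 2 had a stronger peak in replicate 1 (fold 5.35, percentile 78.8, 57 fragments over 9) and none in replicate 2. SATB1-AS1 and TBC1D5 also have starts within 3000 bp of that peak. No peak was called at the other 9 groups.

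TOX (ENSG00000198846.6, chr8:58805412-59119147, minus strand) has 1 annotated start, and 2 peaks lay near it in replicate 1. The stronger had a fold of 3.38 (percentile 31.1) on 54 fragments over a control level of 14, with its summit 382 bp upstream, and the other had a fold of 2.08 (percentile 0.814). Replicate 2 had none. The number of fragments was above the median of the list, while the control level was also high. TOX-DT, a noncoding gene transcribed the other way, has a start within 3000 bp of both peaks.

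**Figure D2:**
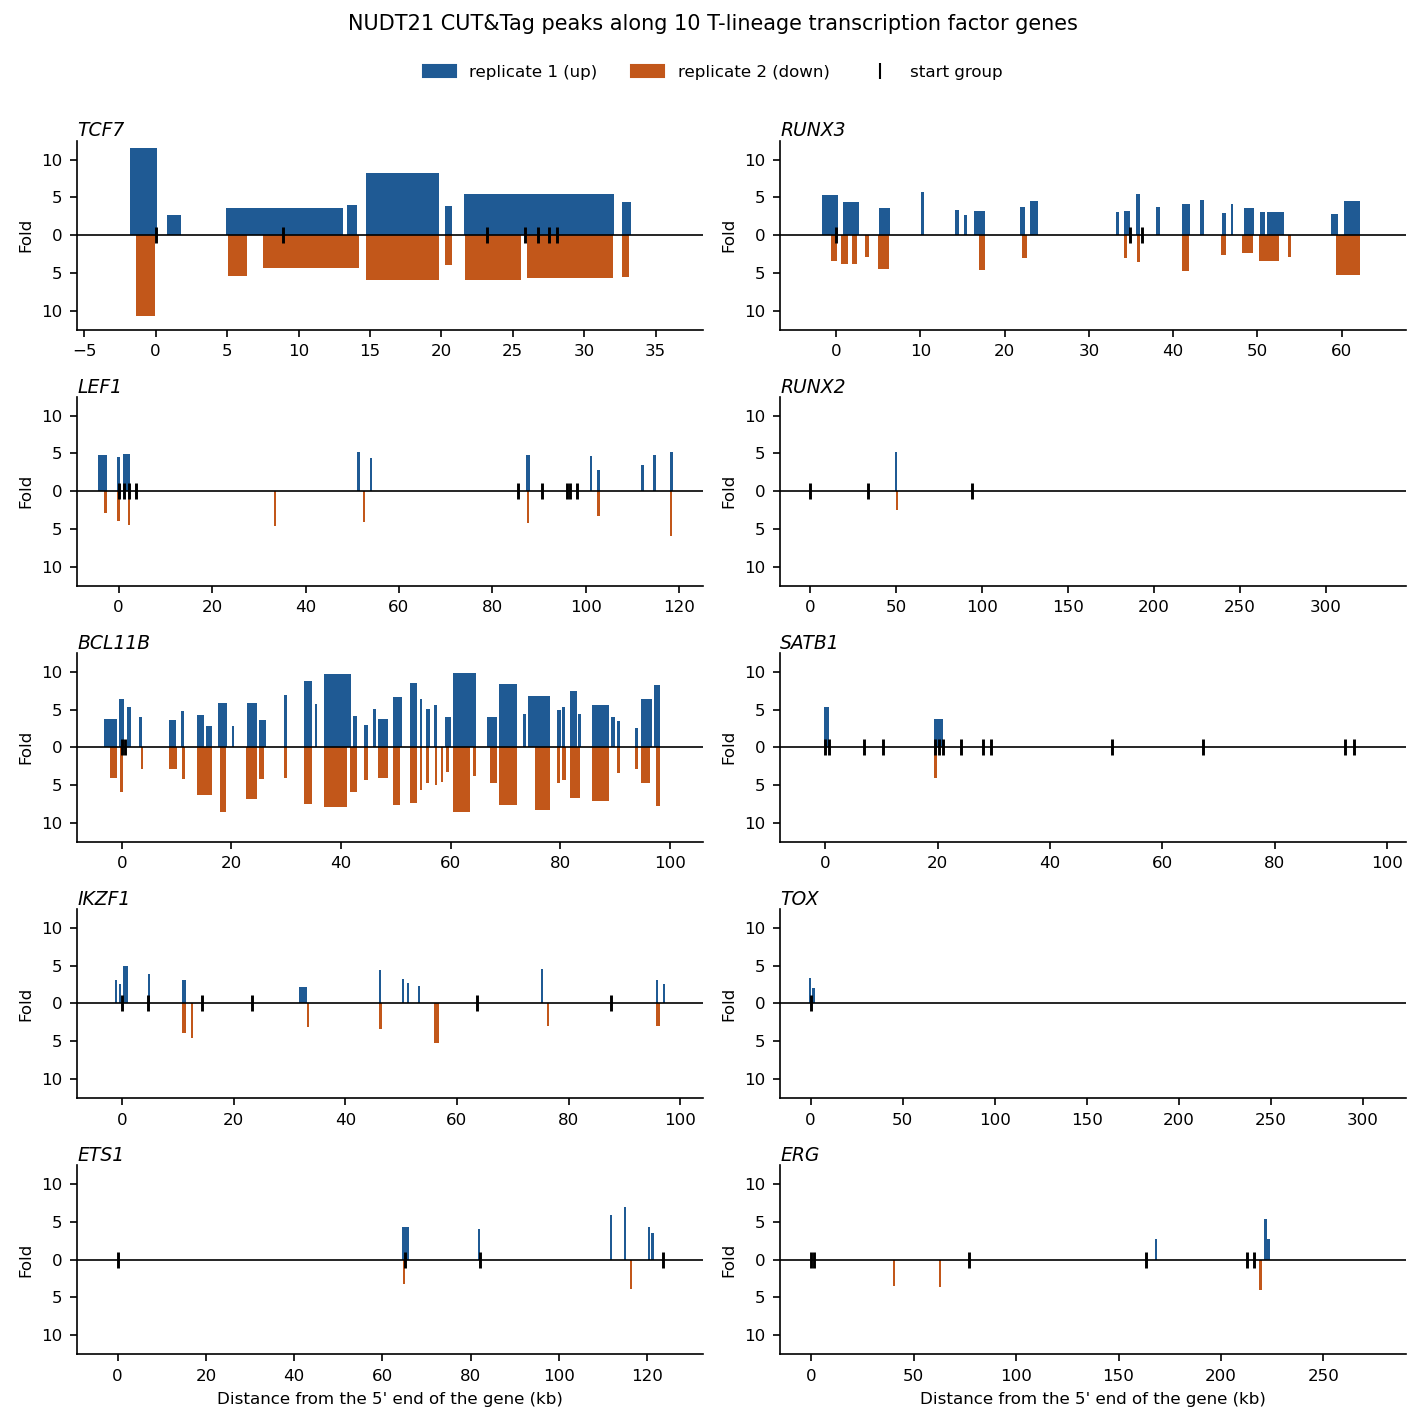
Peaks along the 10 genes, with distance from the 5′ end of the gene in kb on the horizontal axis and the fold of each peak on the vertical axis, replicate 1 upward in blue and replicate 2 downward in orange; black ticks are start groups. In replicate 1, peaks cover 71.6% of TCF7, 50.7% of BCL11B and 26.8% of RUNX3, while RUNX2, TOX and ERG have 1, 1 and 3 body peaks.

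Peaks inside the genes were then counted, by summits between the start and the end of the gene. The 10 genes held 101 peaks in replicate 1 and 75 in replicate 2, of which 79 and 60 lay beyond 3000 bp of every start of the gene. Of these body peaks, 63.4% in replicate 1 and 84.0% in replicate 2 touched a peak of the other replicate, against 56.4% and 85.7% of all peaks on the main chromosomes. BCL11B gave 33 of the 64 touching peaks in replicate 1 and 32 of the 63 in replicate 2. Over the 69 pairs of touching peaks of the 10 genes, promoters included, the summits were a median of 82 bp apart. The median over all 52262 pairs was 115 bp. BCL11B gave 35 of the 69 pairs (median 82 bp), and the medians of RUNX3, TCF7 and LEF1 were 243.5, 54 and 26.5 bp. These pooled values thus rest largely on 1 gene.

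BCL11B alone held 39 of the body peaks in replicate 1 and 33 in replicate 2, and 33 and 32 of these touched a peak of the other replicate. This was 37.9 and 32.1 peaks per 100 kb, ranks 67 and 114 of the 6794 protein-coding genes of 50 kb or longer, of which the medians were 1.29 and 0.597. Peaks covered 50.7% and 43.7% of the gene. Several of them had a higher fold than its promoter peak in the same replicate. In replicate 1, 17 of the 39 body peaks were at or above percentile 80 of the list by fold, and in replicate 2, 15 of 33. The highest in replicate 1, 60.9 kb into the gene in an intron, had a fold of 9.86 (70 fragments, control level 5.64), and its partner in replicate 2 had 8.52 (37 fragments, control level 3.46). These were percentiles 97.4 and 96.3. The highest in replicate 2 lay 18.4 kb into the gene at a fold of 8.54, with a partner of 5.87 in replicate 1.

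TCF7 was the most covered of the 10 genes, at 71.6% in replicate 1 and 64.9% in replicate 2, ranks 110 and 74 of the 9523 protein-coding genes of 30 kb or longer. The median of those genes was 1.15% and 0.517%. Its strongest body peak, 17.2 kb into the gene, had folds of 8.25 and 5.95 (percentiles 95.2 and 84.0) and spanned 5103 and 5133 bp in an intron more than 3000 bp from any start. TCF7 held 7 body peaks in each replicate.

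RUNX3 held 22 and 15 body peaks, or 33.5 and 22.9 per 100 kb, ranks 171 and 345 of 6794, and peaks covered 26.8% and 21.0% of it. Unlike those of BCL11B, these peaks were weak. The median fold was 3.66 in replicate 1 and 3.48 in replicate 2 (median percentiles 39.6 and 25.3), where BCL11B had 5.07 and 4.77 (74.6 and 64.7). The highest body peak of RUNX3 in replicate 1, 10.3 kb into the gene at a fold of 5.69, had no partner in replicate 2, where the highest lay 60.9 kb into the gene at 5.25.

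IKZF1 held 11 and 7 body peaks, LEF1 9 and 6, and ETS1 6 and 2. Per 100 kb this was 10.9 and 6.93 for IKZF1, 7.41 and 4.94 for LEF1 and 4.66 and 1.55 for ETS1, above the medians of long genes in both replicates. The highest body peak of LEF1 was found in both replicates, 118 kb into the gene, at folds of 5.19 and 5.87, and its summits were 27 bp apart. In IKZF1 the highest in replicate 2, 56.7 kb into the gene (fold 5.21), was not called in replicate 1. In ETS1 the highest in replicate 1, 115 kb into the gene (fold 7.02, percentile 91.7), was not called in replicate 2.

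SATB1, RUNX2, TOX and ERG had at most 3 body peaks in a replicate, over gene lengths of 100.2 to 336 kb. Of all long genes, 51.6% in replicate 1 and 63.0% in replicate 2 had at most 1 body peak, and 32.7% and 45% had none. Densities were 2.00 and 0.998 per 100 kb for SATB1, 1.06 in each replicate for ERG, 0.297 in each for RUNX2, and 0.319 and 0 for TOX. The highest body peak of ERG had a fold of 5.37 in replicate 1, 221 kb into the gene. The 10 genes thus ranged from nearly the top of the genes of their length to below the median.

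**Figure D3:**
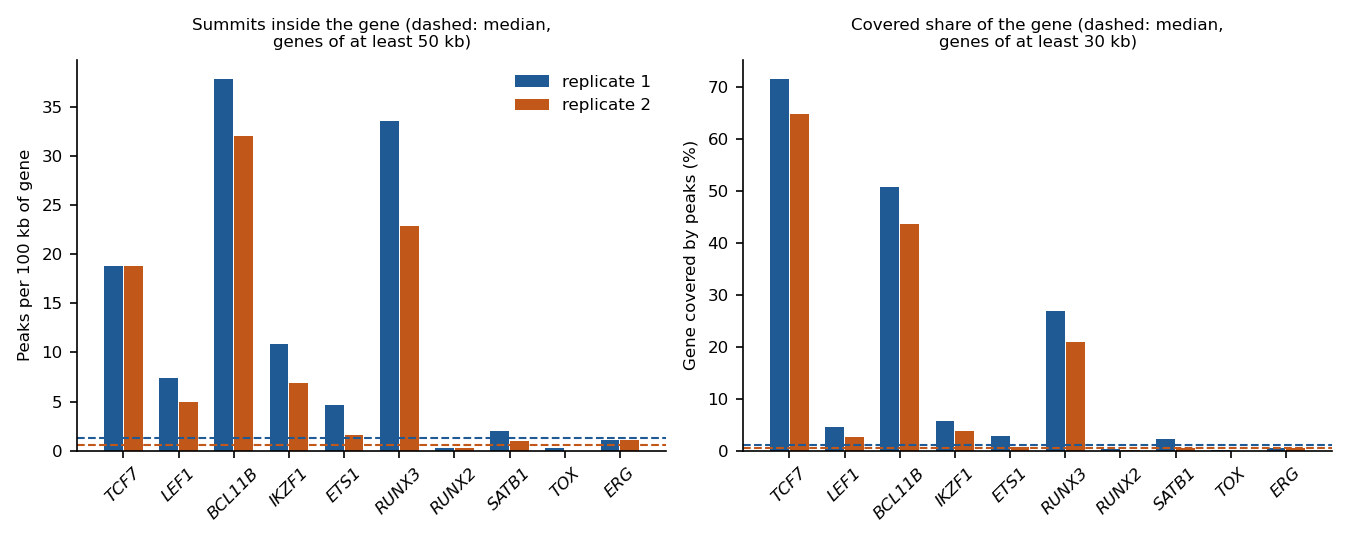
Body peaks per 100 kb of gene (left, vertical axis) and percent of the gene covered by peaks (right, vertical axis) for the 10 genes, replicate 1 in blue and replicate 2 in orange, with dashed lines at the medians of protein-coding genes of at least 50 kb and at least 30 kb. BCL11B and RUNX3 lead on the left (37.9 and 33.5 in replicate 1) and TCF7 and BCL11B on the right (71.6% and 50.7%); TCF7, at 37.2 kb, is shorter than the genes behind the left median.

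Because NUDT21 acts at polyadenylation sites, the ends of the genes were examined as well. A gene-end peak was one with its summit within 1000 bp of the annotated 3′ end and more than 3000 bp from any start. IKZF1 alone of the 10 genes had such a peak in both replicates (1 of 10), against 4.49% of protein-coding genes. Its summits lay 521 and 497 bp past the end, with folds of 2.59 and 3.30 that were low in each list (percentiles 8.07 and 19.2). RUNX3 came next, with summits 1553 and 1620 bp past its end and folds of 4.43 and 4.49. In LEF1, TCF7 and BCL11B the nearest summits lay between 3231 and 5421 bp before the end. In SATB1, RUNX2, TOX and ERG no summit lay within 50 kb of the gene end.

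Base composition was then compared between start groups with and without peaks, as GC content and the ratio of observed to expected CpG within 500 bp of the start. The 23 start groups of the 10 genes with a peak in both replicates had a median GC content of 56.2% and a CpG ratio of 0.692. The 23 groups without a peak had 42.1% and 0.241, and the 9 with a peak in 1 replicate had 51.5% and 0.323. Start groups of all protein-coding genes had medians of 58.5% and 0.418 with a peak in both replicates and 41.8% and 0.239 without a peak. These are descriptions, since start groups of 1 gene share its peaks.

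Several start groups went against this order. RUNX2 group 3 (66.5% GC, CpG ratio 0.814), ERG group 1 (53.2%, 0.833) and ERG group 2 (71.6%, 0.945) were rich in CpG and had no peak. IKZF1 group 1, at 78.4% and 1.02, had the highest GC content and CpG ratio of the 55 groups and had peaks in replicate 1 only. Conversely, groups 2 to 7 of TCF7 had CpG ratios of 0.146 to 0.253 and lay near the wide peaks of both replicates. At ETS1 the group with the peak (67.3%, 0.918) and the canonical group without a peak (40.8%, 0.241) differed in the direction seen over all genes.

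**Figure D4:**
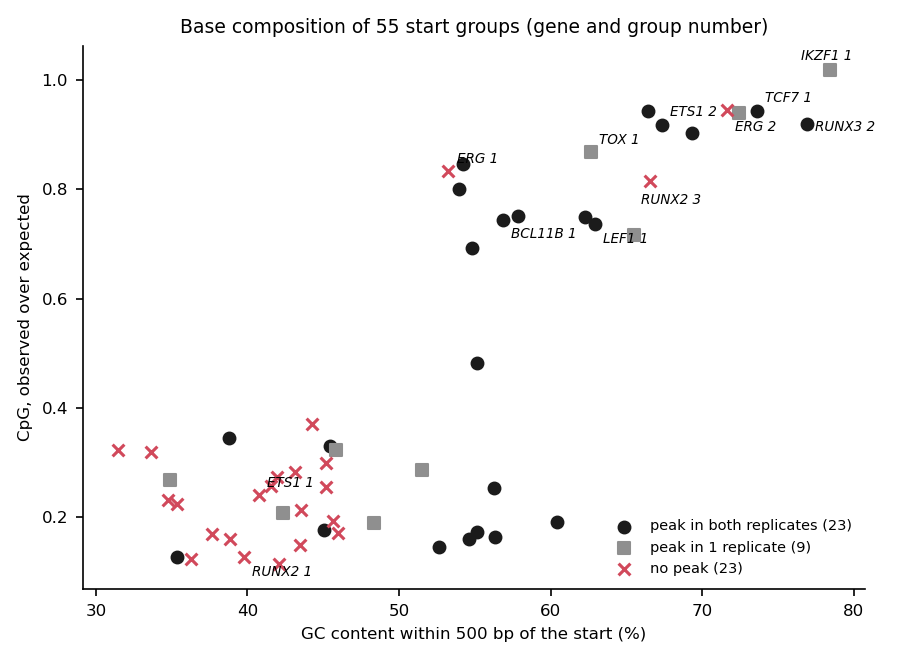
GC content (horizontal axis, percent) against the ratio of observed to expected CpG (vertical axis) within 500 bp of the first start of the 55 start groups, by whether a peak lay within 3000 bp in both replicates (black circles, 23), 1 replicate (grey squares, 9) or neither (red crosses, 23). Most crosses lie at the lower left, and the 3 crosses at a CpG ratio above 0.8 are RUNX2 group 3 and ERG groups 1 and 2.

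Short motifs were counted on both strands within 100 bp of the summits of the promoter peaks of the 10 genes, 32 in replicate 1 and 23 in replicate 2. No motif searched was part of another. TGTA, which as RNA is the motif that NUDT21 binds, was near 34.4% of these summits in replicate 1 and 47.8% in replicate 2, against 46.9% and 48.5% of all promoter peaks. GGAA, the core of ETS sites, was near 87.5% and 73.9%, against 77.7% and 81.0%. The RUNX motif TGTGGT was near 6.25% and 17.4%, against 13.1% and 13.5%. For the TCF and LEF motif CTTTGA the shares were 3.13% and 8.70%, against 5.91% and 6.42%. The GATA motif AGATAA was near 3.13% and 0%, against 2.10% and 2.65%. The order of the 10 genes and of all promoters was not the same in both replicates for the RUNX, ETS, TCF and GATA motifs, and with so few peaks 1 or 2 summits move a share.

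The paralogues of these genes were set beside them. Of 15 paralogues, 9 had a promoter peak in both replicates, 4 in replicate 1 only and 2 in neither, against 57% of all genes. RUNX1, the Runt factor of definitive blood formation, had folds of 9.53 and 8.36 (percentiles 97.0 and 96.0), above both RUNX3 and RUNX2 in each replicate. Its annotated span is 1216867 bp, and its strongest peak was taken over all its starts. Starts of neighbouring genes were looked up for the 10 genes only. Promoter peaks of the paralogues and of the other lists are thus assigned by distance alone. In the ETS family, ETS2 had 6.92 and 5.02, ETS1 had 4.30 and 3.23, and FLI1, the gene next to ETS1, had 4.19 and 3.19. TOX4, which unlike TOX is expressed in most tissues, had 7.61 and 7.16 (percentiles 93.6 and 92.4), while TOX3 had no peak and TOX2 had 5.06 and 5.08. Of the Ikaros family, IKZF5 had 6.56 and 5.80 and IKZF4 had 5.54 and 4.38, IKZF2 had 7.88 in replicate 1 only, and IKZF3 had none. FEV, another ETS factor, had 4.16 and 3.62. The relatives of TCF7, TCF7L1 and TCF7L2, had folds of 3.71 and 4.73 in replicate 1 and no promoter peak in replicate 2.

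Of 30 other transcription factors of the T lineage, 23 (76.7%) had a promoter peak in both replicates, against 57% of all genes. TCF3, the E protein E2A, had the highest folds of this list, 26.2 and 15.3 (percentiles 99.9 and 99.7). BACH2, EOMES, FOXO1, FOXP1 and PRDM1 had a promoter peak in replicate 1 only, and BCL6 and IKZF3 had none. BACH2 was the lowest, with a fold of 2.05 (percentile 0.697). RUNX1, FLI1 and IKZF3 stand both here and among the paralogues. The labelled cell type was also checked on markers, with the limit that a NUDT21 peak does not measure expression. Of 10 genes of T-cell surface and signalling proteins, 7 had a promoter peak in both replicates, 1 in replicate 2 only and 2 in neither. This was near the 57% of all genes, and 2 of the 7 had equal folds in each replicate and may share a peak. Of 10 markers of other cell types, 4 had a peak in both, against the same 57%, 1 in replicate 2 only and 5 in neither. Promoter peaks were thus not limited to T-cell genes, and these counts do not establish the cell type.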

How the data were processed

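NUDT21 CUT&Tag peaks of 2 biological replicates of J.gamma1 cells were analysed. According to the methods of the study and the submitters' processing notes, fastp processed the reads, Bowtie2 2.2.5 aligned them to hg38, Picard removed duplicates, and MACS3 3.0.1 called peaks. Each list deposited by the authors belongs to 1 replicate and gives the fold enrichment at the summit, which is a ratio of pileup plus 1 over control plus 1, its significance as −log10 p and −log10 q, and a score. The score was not used. Read totals are not given in the sources used here, so the depth is unknown. Numbers of fragments and control levels were recovered from the fold and −log10 p, which gave a solution for 99.98% and 99.997% of the peaks of the lists. This step was tested on simulated data. The recovered pileup was 0.9215 per fragment in replicate 1 and 1 per fragment in replicate 2. Folds of replicate 1 therefore follow from the scaled pileup and not from the fragment numbers printed here. The methods do not describe a control library, so what the control level measures is not known, and a high level lowers the fold.

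Peaks on chromosomes 1 to 22, X and Y were assigned to GENCODE 44 genes with Python 3.11.15, numpy 2.4.6 and pandas 2.3.3. Promoter peaks lay within 3000 bp of any start and start groups joined starts within 500 bp. Percentiles were taken within each list as deposited, or within the shortened list where a varied setting cut it. No test was run, since both samples form 1 group, and p-values of single peaks served only as thresholds. The genes and lists were chosen with earlier results of these data known, and the length limit of 30 kb for coverage after the values were seen. The 10 genes and most of their paralogues were named, and of the other lists only the highest and lowest fold and genes lacking a peak in a replicate; T-cell markers, a few genes of the lists and some promoter sequences are not reported singly here. The settings varied were the peak threshold (−log10 q of 5 or more, or the 10000 peaks of highest −log10 p in each replicate), the distances and transcripts, summits in place of edges, and the replicates, each left out in turn.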

Additional observations from a re-analysis of the deposited data

How the results depend on the processing

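Of 60 values recomputed under alternatives, 41 stayed within the spread between replicates or, for numbers of genes, groups or peaks, within a factor of 1.5, and 19 moved. Of these 19, 8 came from keeping only 10000 peaks per list, those of highest −log10 p, as fewer peaks reach fewer genes. Under that limit, genes of the 10 with a promoter peak in both replicates went from 7 to 1 (TCF7), against 57% to 24.3% of all protein-coding genes, start groups with a peak from 23 to 6, start groups with a summit within 500 bp from 10 to 2, body peaks from 176 to 30, body peaks found in both replicates from 64 to 11, gene-end peaks from 1 to 0, other T-lineage factors from 23 to 9 and paralogues from 9 to 3. With a −log10 q of at least 5, the gene-end peak of IKZF1 was lost (0), and 6 of the 10 genes kept a promoter peak, against 49.4% of all protein-coding genes. Promoters within 1000 bp left 5 of 15 paralogues, against 53.7% of all protein-coding genes. Starts of protein-coding transcripts left 15 start groups. A summit within 200 bp of the start left 3 start groups, and counting body peaks as shared by summits within 200 bp left 42. The number of genes with a gene-end peak was 0 within 500 bp, 2 within 2000 bp and 3 at the ends of any protein-coding transcript. For start groups and gene ends, the shares over all protein-coding genes were computed under the main settings only. The counts under other settings thus have no background beside them. With either replicate alone, body peaks ranged from 75 to 101 and start groups with a summit within 500 bp from 11 to 18. The 176 body peaks are the sum of both replicates, so a single replicate falls short of them by construction. The median fold percentile was averaged over both replicates, so leaving 1 out could only be counted as within their spread. Lists cut by −log10 q or to 10000 peaks were ranked anew, so there this percentile refers to the peaks kept. Counts of genes or start groups in 1 replicate cannot fall below those in both. Leaving a replicate out could thus only hold or raise these counts. The motif shares without replicate 1 were added after seeing the data. No paired analysis was possible because the samples form a single group. Fragment numbers at single peaks were small. Replicate 2 had fewer fragments per summit, and the part of depth in the peaks missing from it was not tested.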

Other observations

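Transcription factors of other lineages were set beside the 10 genes. Of 15 factors that direct other blood lineages, 10 had a promoter peak in both replicates, 3 in replicate 1 only and 2 in neither, against 7 of the 10 T-lineage genes and 57% of all protein-coding genes. KLF1, the regulator of red blood cell genes, had folds of 19.9 and 16.7, higher than 99.8% of each list and above TCF7. Of its 3 promoter peaks in each replicate, only 1 had its summit inside the gene. Starts of neighbouring genes were looked up for the 10 genes only, so this peak is assigned to KLF1 by distance alone. Of the factors of B cells, EBF1 and POU2AF1 had no promoter peak, while PAX5 had a fold of 3.87 in replicate 1 and 3.18 in replicate 2, and SPIB had 8.57 and 5.68. IRF8, a factor of monocytes and dendritic cells, had one in replicate 1 at a fold of 3.89.

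Of 15 factors of tissues outside the blood, 3 (20%) had a promoter peak in both replicates, against 57% of all protein-coding genes. HNF4A and SOX10 were among these 3. A further 3 had one in replicate 1 only (NEUROD1, PAX6 and PDX1) and 9 had one in neither. Among the 9 were MYOD1 of muscle, SOX2 of stem and neural cells and CDX2 of the intestine. SOX10, a neural crest factor, had folds of 6.59 and 4.77.

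The loci of the 10 genes were also searched for second copies on 261 alternate sequences of the assembly, where reads can be divided between copies. The longest match was 4047 bp in TOX, and in the other genes it was at most 402 bp, in ERG.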
